A study of Homo sapiens with 3 samples.

Results

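The long noncoding host genes of small nucleolar RNAs (snoRNAs) were read in RNA-seq of MCF10A, a human mammary epithelial line that is immortalized but forms no tumours. The set holds 34 of the 62754 genes in the deposited table. It was chosen by name, as the 28 genes of type lncRNA with a symbol SNHG (snoRNA host gene) followed by a number, plus GAS5, ZFAS1, DANCR, EPB41L4A-AS1, CCDC26 and TUG1. In GENCODE release 44 on hg38, 33 of the 34 are annotated as lncRNA and TUG1 as protein-coding. RNA was taken at 27 h after seeding in 3 replicates of 1 condition and 1 batch. All replicates carried an empty vector of the retroviral Tet-One inducible expression system without an inserted gene, were selected with puromycin, and received no doxycycline or other treatment, so no group was compared with another. Whether the replicates were separate cultures is not given in the sources used here, and their spread may be technical.

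A snoRNA host gene is transcribed and spliced like a messenger RNA gene, but its main stable products are cut from the introns. After splicing, the intron lariat is opened and trimmed by exonucleases down to the snoRNA, which is protected by a fixed set of bound proteins. C/D snoRNAs guide 2′-O-methylation and H/ACA snoRNAs guide pseudouridylation of ribosomal RNA, while the related scaRNAs act on spliceosomal RNAs in Cajal bodies. The spliced exons of many of these hosts hold only short open reading frames, and several are known targets of nonsense-mediated decay.

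Levels are given in TPM, a read count divided by transcript length and scaled to the same total in each replicate. After multiplication by length, values were whole multiples of their smallest step. If that step is 1 read, replicates 1, 2 and 3 had 15273329, 15446347 and 11166546 reads, of which 32621, 35686 and 24993 lay on the 34 genes. Replicate 3 stood apart, with a median of 0.891 times the mean of the replicates over all genes of at least 10 TPM, against 1.06 and 1.05 in replicates 1 and 2. All 6 markers of basal breast epithelium were present, with means between 29.1 TPM (CDH1) and 6612 TPM (KRT5), and summed to between 11918 and 15375 TPM. Of 9 markers of other cells, 6 were below 1 TPM and CD3E, CDH5 and ALB had 0 reads. DCN, COL1A1 and PECAM1 were at 9.05, 4.96 and 1.77 TPM, and the 9 markers summed to between 15.3 and 16.3 TPM. Their part in the results was not tested.

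The name of the set was first compared with the annotation. An annotated snoRNA or scaRNA lay within an intron on the same strand in 31 of the 34 genes. Only C/D snoRNAs were named in 13 hosts, only H/ACA snoRNAs in 12, both classes in SNHG12 and scaRNAs in 4 (SNHG10, SNHG20, SNHG21 and SNHG22), while the 1 snoRNA in SNHG28 has no name. Together the hosts held 140 annotated genes of such RNAs, between 59 and 275 bases long. Of these, 81 were the SNORD115 and SNORD116 repeats and their neighbours in SNHG14. Some entries cover the same locus, so distinct RNAs are fewer, here and in the counts of held snoRNAs below. SNORA16A and SNORA17B each have more than 1 entry at their locus, and unnamed entries overlap SNORA17A and SNORD60. No snoRNA gene of GENCODE release 44 lay in GAS5, CCDC26 or TUG1. The RefSeq annotation of GRCh38.p14 lists 11 snoRNAs in GAS5, with the SNORD44 and SNORD74 to SNORD81 series among them. It lists none in CCDC26 or TUG1, so for these genes the annotations used here do not bear out the name of host.

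The sequences below are those of snoRNAs whose reads are described later, read from hg38 on the strand of the host. Capitals mark the C box TGATGA within the first 20 bases and the D box CTGA within the last 15 bases of C/D snoRNAs, and the ACA within the last 9 bases of the H/ACA snoRNA SNORA73B. SNORD49A is shown because its host SNHG29 was the highest of all members, and SNORD44 because its host GAS5 was the second and the snoRNA has no gene of its own in GENCODE.
SNORA73B (in SNHG3): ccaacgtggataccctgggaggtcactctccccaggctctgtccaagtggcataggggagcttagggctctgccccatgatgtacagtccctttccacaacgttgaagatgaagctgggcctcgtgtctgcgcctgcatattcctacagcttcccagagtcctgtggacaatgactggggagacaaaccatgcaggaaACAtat
SNORD12C (in ZFAS1): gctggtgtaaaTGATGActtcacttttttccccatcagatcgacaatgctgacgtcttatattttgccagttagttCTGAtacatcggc
SNORD99 (in SNHG12): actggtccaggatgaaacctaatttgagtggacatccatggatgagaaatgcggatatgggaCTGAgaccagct
SNORD93 (in SNHG26): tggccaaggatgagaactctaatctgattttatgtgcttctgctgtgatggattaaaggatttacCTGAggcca
SNORD104 (in SNHG25): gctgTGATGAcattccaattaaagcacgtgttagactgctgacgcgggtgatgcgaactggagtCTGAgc
SNORD49A (in SNHG29): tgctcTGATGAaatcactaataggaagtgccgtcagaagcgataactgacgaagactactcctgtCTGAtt
SNORD44 (in GAS5): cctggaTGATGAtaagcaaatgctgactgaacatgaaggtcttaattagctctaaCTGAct
They lie on hg38 at chr1:28508559-28508762 (plus strand), chr20:49278940-49279028 (plus), chr1:28578749-28578822 (minus), chr7:22856613-22856686 (plus), chr17:64146083-64146152 (plus), chr17:16440036-16440106 (plus) and chr1:173865968-173866028 (minus), in this order. Both boxes in these letters and windows were found in 18 of 26 C/D snoRNAs outside SNHG14 (69.2%), in 69 of 81 within it (85.2%) and in 51.9% of the 206 other annotated SNORD genes, and in 0 of 25 H/ACA snoRNAs of the hosts. ACA in the last 9 bases was found in 21 of these 25 (84.0%), in 82.0% of 189 other SNORA genes and in 8.25% of the 206 other SNORD genes. Only the strand of the RNA was searched. SNORD99 and SNORD93 lack the C box in these letters, which says nothing of its function.

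The host genes were expressed far more often than lncRNA genes in general. A mean of at least 1 TPM was measured for 29 of the 34 genes (85.3%), against 12.2% of all 18866 lncRNA genes, 56.7% of protein-coding genes and 24.9% of all genes. Of these 29 genes, 5 were at or above 100 TPM, 17 between 10 and 100 TPM, and 7 between 1 and 10 TPM. Together the 34 genes held 1811, 1959 and 1637 TPM in replicates 1, 2 and 3, and 49.7%, 46.4% and 49.1% of that came from SNHG29, GAS5 and SNHG16. The 33 of type lncRNA held 13.8%, 11.8% and 13.9% of the TPM of all lncRNA genes, and they were 5 of the 10 and 15 of the 50 highest lncRNA genes. In RNA of many cells, these levels do not tell how many cells carried a transcript from how much each cell carried.

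**Figure D1:**
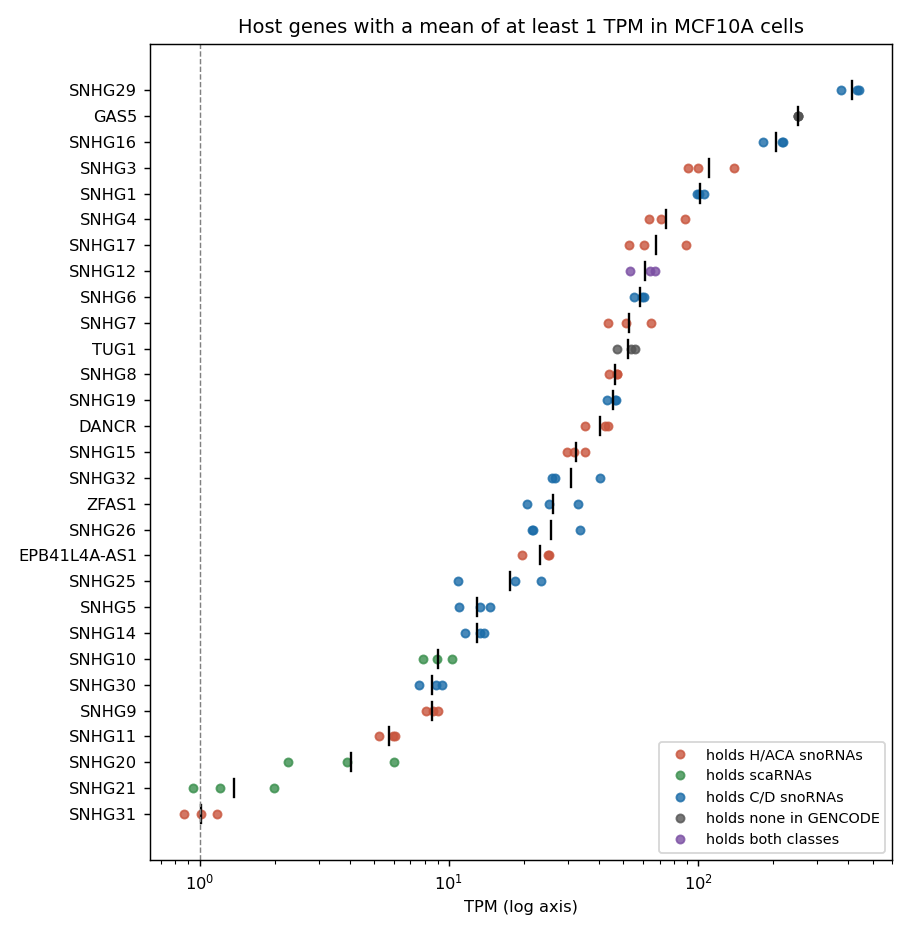
TPM (log axis) of the 29 expressed host genes (mean of 1 TPM or more), with 1 point per replicate, a bar at the mean and the dashed line at 1 TPM; colours give the class of snoRNA held. SNHG29, GAS5 and SNHG16 lie at 181 TPM or above in every replicate, and only SNHG21 and SNHG31 have replicates on both sides of 1 TPM.

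Among the hosts of C/D snoRNAs, 12 of 13 were expressed, with a median of 26.2 TPM over all 13. SNHG29 (ENSG00000175061, chr17:16438767-16480249, plus strand), the host of SNORD49A, SNORD49B and SNORD65, was measured at 432, 439.6 and 372 TPM in replicates 1, 2 and 3. Its lowest replicate was above every replicate of every other member. SNHG16 (ENSG00000163597, chr17:76557727-76670985, plus strand) holds SNORD1A, SNORD1B and SNORD1C and was at 216, 219 and 181 TPM. SNHG1 (ENSG00000255717, chr11:62851978-62855953, minus strand), which holds SNORD22, SNORD25 to SNORD28 and SNORD30, was at 105, 99.2 and 101 TPM. Relative to its mean, its SD of 3.14 TPM was the smallest of the 29 expressed members after that of GAS5. SNHG6, the host of SNORD87 on chromosome 8, was similarly even at 59.5, 55.4 and 60.5 TPM, as was SNHG19, the host of SNORD60 on chromosome 16, at 46.2, 43.0 and 46.7 TPM. In both, replicate 2 was the lowest.

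In ZFAS1, SNHG32, SNHG26 and SNHG25, replicate 2 was the highest and stood further apart. ZFAS1 (ENSG00000177410, chr20:49278178-49299600, plus strand), a host of the SNORD12 family that was first described in the mammary gland of the mouse, was at 20.6, 32.9 and 25.2 TPM. SNHG32, which holds SNORD48 and SNORD52, was at 26.6, 40.5 and 25.9 TPM, and SNHG26, which holds SNORD93, at 21.6, 33.4 and 21.8 TPM. For SNHG32 and SNHG26 the other replicates differed by less than 1 TPM. SNHG25, the host of SNORD104, was at 18.4, 23.3 and 10.8 TPM, from only 30, 39 and 15 reads. SNHG5, which holds SNORD50B, was at 13.3, 14.6 and 10.99 TPM, and SNHG30, which holds SNORD7, at 8.85, 9.35 and 7.58 TPM. SNHG14 (ENSG00000224078, chr15:24978583-25420336, plus strand), the imprinted transcript that runs across the SNORD116 and SNORD115 clusters and antisense to UBE3A, was at 13.3, 13.9 and 11.6 TPM, from 1687, 1809 and 1251 reads. Its long antisense form is known from neurons, and these values do not tell which part of the locus was transcribed. The only C/D host below 1 TPM was SNHG18, at 0.89, 0.577 and 0.581 TPM from 9, 6 and 5 reads.

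The hosts of H/ACA snoRNAs were expressed in 11 of 12 cases, with a median of 36.3 TPM over all 12. SNHG3 (ENSG00000242125, chr1:28505980-28510892, plus strand), the host of SNORA73A and SNORA73B, was at 99.9, 139 and 90.6 TPM. SNHG4 (ENSG00000281398, chr5:139274102-139284899, plus strand), which holds SNORA74A and SNORA74D, was at 71.0, 88.0 and 63.5 TPM. SNHG17 (ENSG00000196756, chr20:38419638-38435409, minus strand), the host of the SNORA71 family, was at 60.3, 89.6 and 52.6 TPM. In these hosts, and in SNHG7 at 51.2, 64.4 and 43.3 TPM, which holds SNORA17A and SNORA17B, replicate 2 was the highest and replicate 3 the lowest. SNHG8, the host of SNORA24, was instead even at 47.4, 43.8 and 47.3 TPM. DANCR (ENSG00000226950, chr4:52712325-52723623, plus strand), which holds SNORA26 and is known to keep epidermal progenitor cells undifferentiated, was at 43.6, 42.3 and 35.1 TPM. SNHG15, the host of SNORA9, was at 31.7, 35.2 and 29.7 TPM. EPB41L4A-AS1, the host of SNORA13, was at 25.0, 25.2 and 19.6 TPM. In DANCR and EPB41L4A-AS1, replicates 1 and 2 were nearly equal and replicate 3 lay below both. The lower H/ACA hosts were SNHG9 (SNORA78) at 8.07, 8.64 and 9.01 TPM, SNHG11 (SNORA60 and SNORA71E) at 5.22, 6.07 and 5.97 TPM, and SNHG31 (SNORA70I) at 0.863, 1.18 and 1.01 TPM. SNHG27, an annotated host of a SNORA70 copy, had 0, 0 and 1 read.

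SNHG12 (ENSG00000197989, chr1:28578538-28583132, minus strand) holds SNORD99 together with SNORA16A, SNORA44 and SNORA61, and was at 64.1, 66.8 and 53.2 TPM. The hosts of scaRNAs were lower, and 3 of 4 were expressed. SNHG10, the host of SCARNA13, was at 8.99, 10.3 and 7.85 TPM. SNHG20, the host of SCARNA16, was at 3.90, 6.00 and 2.26 TPM, the widest spread relative to the mean among the 29 expressed members. SNHG21, with SCARNA15, was at 1.21, 0.939 and 1.99 TPM from 5, 4 and 7 reads. SNHG22, with SCARNA17, had 0, 2 and 4 reads, and was at 0.229 and 0.554 TPM in replicates 2 and 3. In SNHG21 and SNHG22, replicate 3 was the highest, but these reads are too few to order the replicates.

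GAS5 (ENSG00000234741, chr1:173858559-173868882, minus strand) was the second highest member, at 252, 252 and 249.9 TPM. Growth arrest-specific transcript 5 is known to accumulate when growth stops or translation is blocked, since its spliced RNA is a target of nonsense-mediated decay. With an SD of 1.18 TPM, it was the most even of the 29 expressed members. TUG1 (ENSG00000253352, chr22:30969245-30979395, plus strand), a widely expressed long RNA with no annotated snoRNA, was at 53.7, 55.7 and 47.2 TPM. CCDC26 on chromosome 8, a lncRNA best known from leukaemia, had 0 reads in every replicate. A limit of 3 reads allows it up to 0.0283, 0.0276 and 0.0333 TPM with the length of its longest transcript, 20097 bases. The canonical transcript has 1017 bases, for which the limit would be higher in proportion. CCDC26 shared none of its exons with another gene on the same strand. SNHG28 had 0, 0 and 3 reads, but 90.8% of its exonic bases lie in exons of other genes of that strand. How reads on such bases were counted is not given in the sources used here, so its low value is not read as a lack of expression. The same holds for 72.9% of the exonic bases of SNHG21. On the opposite strand, the share lying in exons of other genes ran from 0% (SNHG3 among others) to 58.9% (SNHG6) over the expressed members. It was 51.2% for EPB41L4A-AS1, 37.6% for SNHG8 and 36.4% for ZFAS1. Whether strand was used in counting is not given, and the part of antisense reads in these levels was not tested. Of the 5 members below 1 TPM, SNHG18, SNHG22, SNHG27, SNHG28 and CCDC26, 4 had a replicate with 0 reads.

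Most neighbours in this order were not separated by their replicate ranges. Of the 28 pairs of neighbouring expressed members, 21 had replicate ranges that overlapped. Some overlapping pairs still kept their order within each of the 3 replicates. These were SNHG8 and SNHG19, SNHG19 and DANCR, DANCR and SNHG15, and SNHG32 and ZFAS1. The same was seen for EPB41L4A-AS1 and SNHG25, SNHG10 and SNHG30, and SNHG11 and SNHG20. The separated steps were those from SNHG29 to GAS5, from GAS5 to SNHG16, from SNHG16 to SNHG3, from SNHG1 to SNHG4, from SNHG14 to SNHG10, from SNHG9 to SNHG11 and from SNHG20 to SNHG21.

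The named hosts were also set beside other genes that hold an intronic snoRNA in GENCODE. All 34 members were kept as named hosts, although GAS5, CCDC26 and TUG1 hold none by that rule. Of 50 other lncRNA genes with such a snoRNA, 22.0% reached 1 TPM, as did 2256 of 18783 lncRNA genes without one. Of 272 protein-coding genes with one, 77.6% did, and of 19773 without one, 56.4%. The median over all genes of the group was 25.9 TPM for the named hosts, 34.7 TPM for the protein-coding hosts and 0 TPM for the other lncRNA hosts. The highest protein-coding hosts were HSPA8 at 4641 ± 559 TPM, RPS12 at 2509 ± 259 TPM and EEF2 at 2490.5 ± 326 TPM (SD, n = 3 each). They lay well above SNHG29, at 414 ± 37.1 TPM (SD, n = 3). The highest of the other lncRNA hosts was UBA6-DT at 10.5 ± 1.56 TPM (SD, n = 3), followed by the unnamed gene ENSG00000290993 at 8.16 ± 3.63 TPM and GPRC5D-AS1 at 5.67 ± 1.32 TPM (SD, n = 3 each). SNHG symbols are given by curators to genes already known as hosts, so these shares describe the groups and were not tested.

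**Figure D2:**
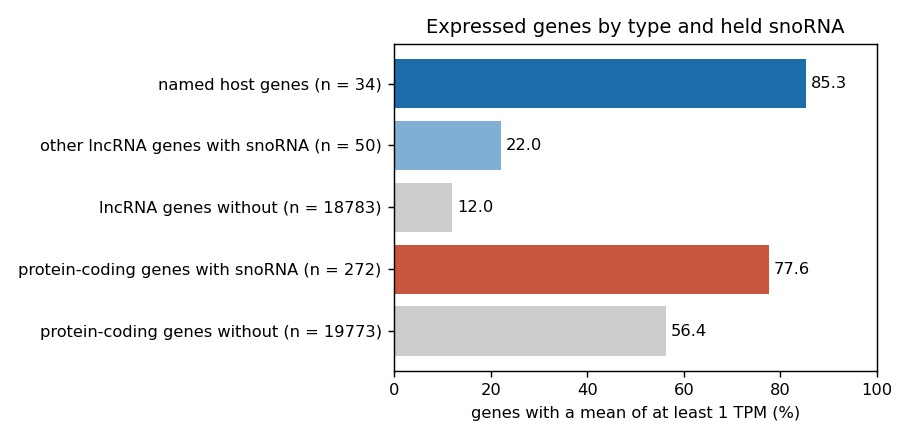
Percent of genes that reached 1 TPM in the mean of 3 replicates, by gene type and by whether an annotated snoRNA or scaRNA lies in an intron on the same strand; n is the number of genes. The named hosts, which include GAS5, CCDC26 and TUG1 without such a snoRNA in GENCODE, reach 85.3%. The protein-coding hosts reach 77.6%, against 22.0% for other lncRNA hosts.

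Reads on the held snoRNAs themselves differed by whether an annotated exon overlapped them. Outside SNHG14, 12 held snoRNAs shared no base with an annotated exon on the same strand, and all 12 had at least 1 read, 2060 reads in all. The other 47 shared bases with an exon, in 45 cases of another transcript of the host, and 3 of these had reads, 8 in all. These were SNORD12B, SNORD48 and SNORD7. In SNHG14, 3 of 45 snoRNAs without a shared base had reads, 5 in all, and 0 of 36 with one. Over snoRNAs held by other genes, 53.5% of 297 without a shared base and 11.2% of 160 with one had reads. A value of 0 for SNORD49A and the other snoRNAs of SNHG29, for the snoRNAs of SNHG1 or for SNORA73A is therefore not read as a lack of the RNA. Of the exonic bases of the expressed hosts, between 0% (GAS5 among others) and 39.7% (SNHG25) lay in snoRNA genes of GENCODE. The 0% for GAS5 follows from the lack of such genes there, since its 11 RefSeq snoRNAs cover 801 of its 4932 exonic bases.

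**Figure D3:**
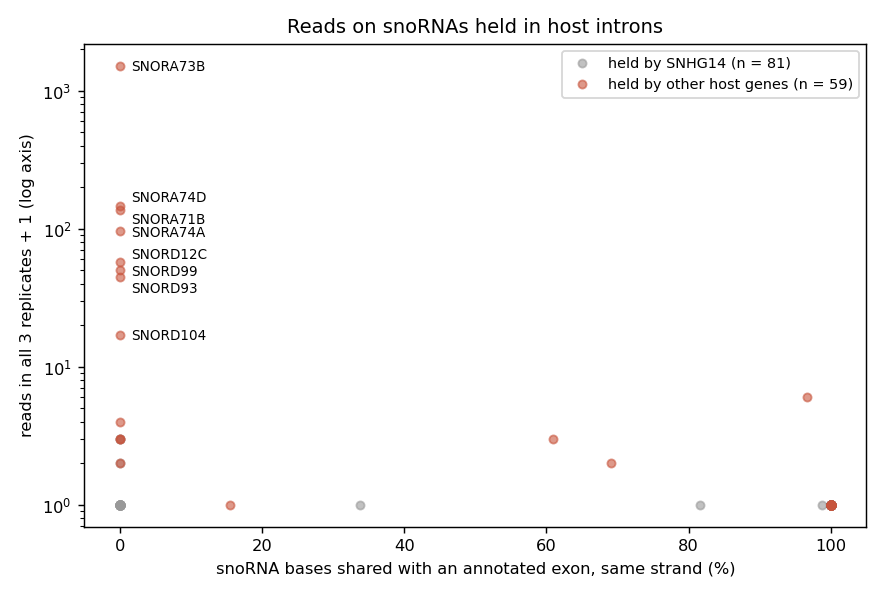
Reads of each held snoRNA over the 3 replicates plus 1 (log axis) against the percent of its bases shared with an annotated exon on the same strand; red points are held by hosts other than SNHG14 and grey points by SNHG14. The 8 snoRNAs with at least 15 reads share no base, and those fully shared lie at 0 reads.

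The snoRNAs with most reads were of the H/ACA class. SNORA73B had 330, 426 and 754 reads, which is 308, 387 and 828 TPM, while its host SNHG3 was at 99.9, 139 and 90.6 TPM. The snoRNA was thus highest in replicate 3, where the host was lowest. Replicate 3 was also the lowest for 69.5% of all expressed genes, so the low host value is not particular to SNHG3. SNORA74A in SNHG4 was likewise highest in replicate 3, at 15.4, 27.2 and 56.6 TPM from 16, 29 and 50 reads. SNORA74D in the same host was at 55.6, 71.2 and 81.2 TPM. SNORA71B, whose annotated length of 272 bases is close to the longest of the set, followed its host SNHG17 with replicate 2 on top, at 23.8, 53.8 and 18.9 TPM. The RefSeq annotation gives SNORA71B only 136 bases within that span, so the span counted may include intron of the host. The part of such bases in its reads was not tested. Among the C/D snoRNAs shown above, SNORD12C had 18, 17 and 21 reads (38.8, 35.7 and 53.2 TPM), SNORD99 20, 20 and 9 reads, SNORD93 8, 13 and 23 reads, and SNORD104 4, 3 and 9 reads. Replicate 3 was the highest in 6 of the 8 held snoRNAs with at least 15 reads, the exceptions being SNORA71B and SNORD99. Over these 8 the median log2 ratio of TPM + 1 in replicate 3 against the mean of replicates 1 and 2 was 0.88. It was 0.13 over the 71 snoRNAs and scaRNAs of the whole table with at least 15 reads, which include these 8. The ratio was positive in 38 of the 71. Next came SNORD12B with 5 reads and ENSG00000212161 in SNHG28 with 3, and SNORA70I, SNORD116-11, SNORD116-5, SNORD1B and SNORD48 were tied at 2 reads. RNA was fragmented for inserts longer than most of these RNAs, and a read within a snoRNA may also come from the unspliced host, so these values are not levels of the mature snoRNA.

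The levels of several hosts depended on which transcript gave the length. The length behind the deposited values was that of the longest annotated transcript, and hosts have many annotated transcripts, such as 91 for GAS5, 80 for SNHG1, 118 for SNHG17 and 142 for SNHG14. For SNHG29 the longest transcript has 3310 bases and the canonical transcript 443 bases. With the canonical length in its place and TPM rescaled, SNHG29 was at 2529 ± 195 TPM, SNHG16 at 1217 ± 109 TPM, GAS5 at 842 ± 7.15 TPM and SNHG1 at 270.4 ± 8.21 TPM (SD, n = 3 each). SNHG16 then stood above GAS5, and the change was at least 2-fold upward for 9 of the 29 expressed members, where the median over all expressed genes was 0.817-fold. Besides SNHG29, SNHG16, GAS5 and SNHG1, these were SNHG20 (5.04-fold), SNHG5 (3.58-fold), SNHG11 (3.13-fold), SNHG14 (2.81-fold) and SNHG26 (2.52-fold). SNHG3, at 107 ± 24.2 TPM (SD, n = 3), moved from the fourth to the sixth place among members. SNHG31 fell below 1 TPM through the rescaling, since its longest and canonical transcripts both have 2203 bases. Neither length is that of the transcripts present, which the table does not resolve.

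**Figure D4:**
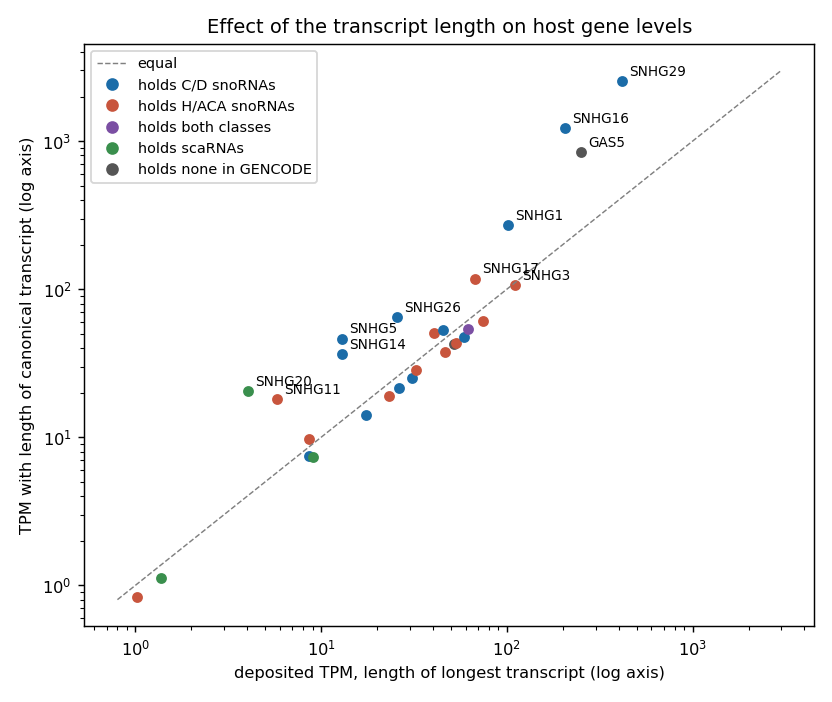
Mean TPM of the 29 expressed hosts as deposited, with the length of the longest transcript (x, log axis), against TPM recomputed with the length of the canonical transcript (y, log axis); the dashed line marks equal values and colours give the class of snoRNA held. SNHG29 and SNHG16 rise from 414 and 206 TPM to 2529 and 1217 TPM, while SNHG3 stays near 107 TPM.

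The spread between replicates was near that of all expressed genes and smaller than that of expressed lncRNA genes, whose median level of 2.26 TPM lay below the 32.2 TPM of the expressed members. Over the 29 expressed members the median SD of log2(TPM + 1) was 0.16, against 0.19 for all genes of at least 1 TPM and 0.36 for all such lncRNA genes. Replicate 3 lay below the mean of replicates 1 and 2 by a median log2 ratio of -0.24 in members and -0.24 in all expressed genes. It was the lowest replicate for 19 of 29 members (65.5%), against 69.5% of all expressed genes. Replicate 2 was the highest for 21 of 29 members (72.4%), against 49.2% of all expressed genes and 61.1% of expressed lncRNA genes. Its log2 ratio to the mean of replicates 1 and 3 was at least 0.5 in 7 of 29 members (24.1%), 13.1% of all expressed genes and 35.2% of expressed lncRNA genes. With replicates scaled by the median ratio of genes of at least 10 TPM, this held for 3 of 29 members, 11.2% of all expressed genes and 30.5% of expressed lncRNA genes, so the members no longer exceeded all genes. The 7 before scaling, chosen after their values were seen, were SNHG20, SNHG17, SNHG25, SNHG32, SNHG26, SNHG3 and ZFAS1.

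To compare replicates with counting error, a chi-square test set the reads of each gene against those that equal TPM would give, for 15802 genes with at least 15 reads and with Benjamini-Hochberg adjustment over them. At an adjusted threshold of 0.05, replicates differed for 17 of 30 members tested, against 54.3% of all genes. With the same scaling they differed for 12 of 30, against 31.2% of all genes. The share called rose with reads in all genes, and at 3000 reads or more replicates differed without scaling for 6 of 9 members, against 95.6% of all genes. Between 300 and 3000 reads they differed for 10 of 14 members, against 61.7% of all genes, and below 300 reads for 1 of 7, against 22.8%. With scaling, they differed at 3000 reads or more for 4 of 9 members, against 61.6% of all genes. Between 300 and 3000 reads this held for 7 of 14, against 29.5%, and below 300 reads for 1 of 7, against 15.9%. The members called in both ways were 8, namely SNHG3, SNHG4, SNHG7, SNHG17, SNHG20, SNHG26, SNHG32 and ZFAS1, and replicate 2 was the highest in all 8. GAS5, SNHG1, SNHG6 and SNHG8 were called only after scaling. Their deposited TPM was nearly equal between replicates, so that scaling put replicate 3 above the others. Its log2 ratio was then 0.23 for GAS5, 0.22 for SNHG1, 0.31 for SNHG6 and 0.29 for SNHG8. The test covers counting error only, and without replicate 3 the number called was 8 of 29 tested, against 21.3% of all genes.

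**Figure D5:**
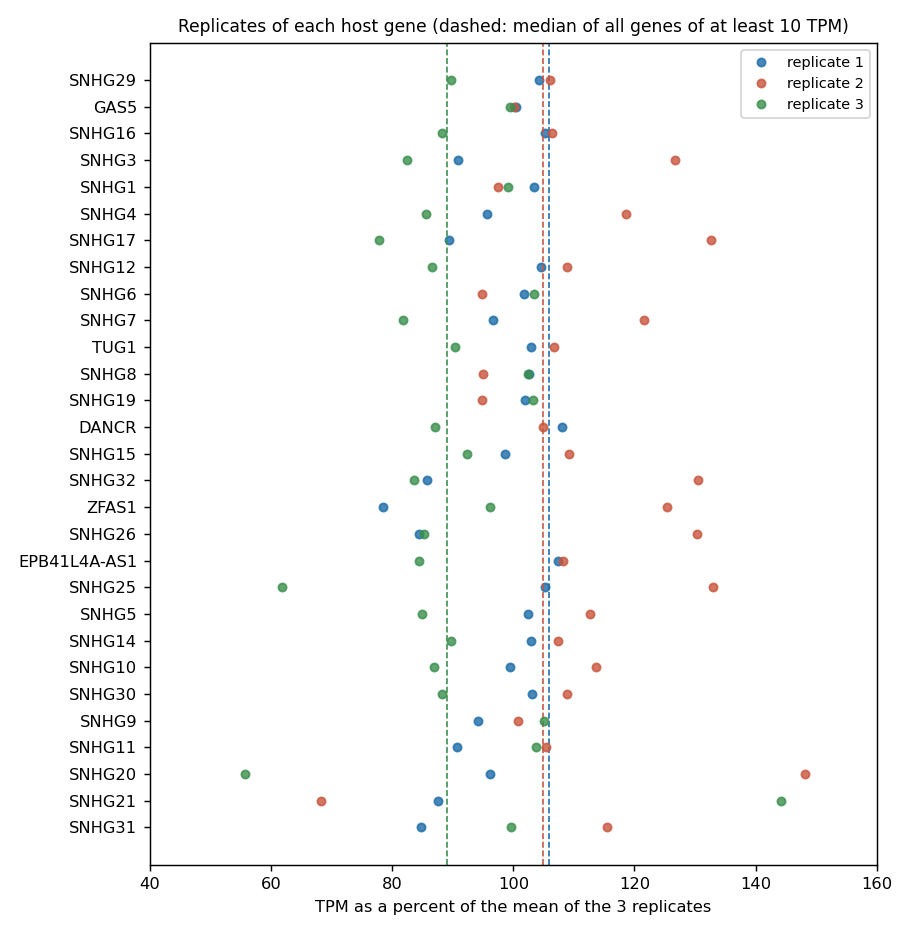
TPM of each replicate as a percent of the mean of the 3 replicates, for the 29 expressed hosts in order of level; dashed lines mark the median of each replicate over all genes of at least 10 TPM. GAS5 has its replicates almost on each other, while replicate 2 stands to the right in SNHG3, SNHG17, SNHG32, SNHG26 and SNHG20.

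Several host genes are known to start with a 5′ terminal oligopyrimidine tract, the feature by which ribosomal protein messenger RNAs are controlled in translation. A tract was taken as a C followed by at least 4 bases that are C or T, starting within 5 bases of the annotated start and on the strand of the gene. With the starts of the RefSeq promoter table (GRCh38.p14), in which 29 members were matched by symbol, 13 had a tract (44.8%), against 21.1% of all 35116 promoters and 67.9% of 81 ribosomal protein genes. A tract at the start itself was found in 7 of 29 members (24.1%) and 4.07% of all promoters. With the starts of GENCODE canonical transcripts, 9 of 34 members had a tract (26.5%), against 20.5% of all 38899 genes. Both sources placed the start within 5 bases of each other for only 6 of 29 members, and for GAS5 they were 1056 bases apart. The windows below run from 10 bases before to 20 bases from the start, with the tract in capitals. They show SNHG29 and GAS5, the highest members, other hosts with a tract at the start itself, and TUG1, which has none. Of the next highest members, SNHG16 had a tract within 5 bases of the RefSeq start only. SNHG3 and SNHG1 had none within 5 bases of either start.
SNHG29 (GENCODE start): aaggtgtgacCTTTTCattcccgttgttat
GAS5 (GENCODE start): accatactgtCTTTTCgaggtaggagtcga
ZFAS1 (RefSeq start): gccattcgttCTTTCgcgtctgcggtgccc
SNHG32 (RefSeq start): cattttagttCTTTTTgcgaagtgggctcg
SNHG5 (RefSeq start): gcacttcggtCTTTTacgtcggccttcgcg
SNHG12 (RefSeq start): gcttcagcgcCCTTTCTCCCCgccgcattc
TUG1 (RefSeq start): ggggcgggccgagcgacgcagccgggacgg
On hg38 these windows are chr17:16439027-16439056 (plus strand), chr1:173867970-173867999 (minus), chr20:49278632-49278661 (plus), chr6:31834906-31834935 (plus), chr6:85678714-85678743 (minus), chr1:28581854-28581883 (minus) and chr22:30969255-30969284 (plus). GAS5 and SNHG29 had the tract CTTTTC exactly at the GENCODE start and none within 5 bases of the RefSeq start. Conversely, SNHG32 and SNHG5 had none within 5 bases of the GENCODE start, so the tracts shown depend on the source of the start. ZFAS1 had the same start and tract in both sources, and SNHG12 had another tract at its GENCODE start. Among expressed members matched in RefSeq, the median log2 ratio of replicate 3 was -0.29 for the 12 with a tract and -0.23 for the 13 without. The ranges overlapped, from -0.50 to 0.067 with a tract and from -0.87 to 0.53 without. Over all expressed genes matched in RefSeq, the medians were -0.225 with a tract and -0.227 without.

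The proteins that act on these RNAs were read from a list of 28 genes, chosen by their known roles. All 28 were at or above 1 TPM, against 56.7% of all protein-coding genes, and their median was 86.0 TPM. This difference was not tested. The C/D core proteins were between 272 ± 21.7 TPM for SNU13 and 357 ± 51.6 TPM for FBL, the methyltransferase (SD, n = 3 each). The H/ACA core proteins ranged from 48.7 ± 2.01 TPM for GAR1 to 395 ± 43.3 TPM for NHP2 (SD, n = 3 each), with the pseudouridine synthase DKC1 at 114 ± 10.97 TPM (SD, n = 3). Of the 11 assembly and transport genes, NOLC1 was the highest at 301 ± 39.4 TPM and ZNHIT3 the lowest at 15.9 ± 1.31 TPM (SD, n = 3 each). DBR1, which opens intron lariats, was at 30.7 ± 1.04 TPM (SD, n = 3). Of the 7 genes of nonsense-mediated decay, SMG5 was the highest at 104 ± 10.1 TPM and SMG6 the lowest at 20.4 ± 4.0 TPM (SD, n = 3 each). LARP1, which binds pyrimidine tracts at RNA starts, was at 343 ± 57.9 TPM (SD, n = 3). Replicate 3 was the lowest in 24 of the 28 genes. It was the lowest in 78.5% of expressed protein-coding genes that hold no snoRNA and in 80.6% of those that hold one.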

How the data were processed

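Total RNA of 3 replicates of MCF10A cells, 300 ng each, was depleted of ribosomal RNA and sequenced. Per the labels and the methods, the authors used the Seq2science workflow with hg38, and the submitters' processing notes name STAR, fastp, MultiQC and GRCh38.p14. Which annotation release was counted, and whether strand was used, is not given in the sources used here. The authors deposited TPM values for 62754 genes, which were used as they are.

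Types, positions and lengths came from GENCODE release 44, in which 62700 genes were matched by Ensembl identifier and 54 were not. TPM times the longest transcript length, less 1 base per exon, divided by its smallest value above 0, was whole within 0.01 for 100% of values and was taken as reads. The limit for 0 reads was 3 reads, and limits cover counting error only. A snoRNA or scaRNA gene was held by a gene if it lay in an intron of any of its transcripts on the same strand. Expressed means a mean of at least 1 TPM. The chi-square test of reads was tested on simulated data of 62700 genes. Without scaling, it called 100% of 200 genes of at least 100 reads that had a 4-fold change in a single replicate. With scaling by the median ratio, 5.10% of 15603 genes without a change had an unadjusted p under 0.05. That share was not computed for the test without scaling.

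The members, lists and tests were chosen with earlier results of these data known. Every member is named, expressed members with the value in each replicate. Of held snoRNAs, the 12 with most reads are named, with those tied with the last of them and any with reads in the 5 highest hosts. Of the protein list, the highest and lowest of each role are named, and of other hosts the 3 highest of each type. Tables were handled with pandas 2.3.3 and numpy 2.4.6, tests with scipy 1.17.1 and plots with matplotlib 3.10.9, under Python 3.11.15.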

Additional observations from a re-analysis of the deposited data

How the results depend on the processing

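No paired analysis was possible because the samples form a single group. Of 60 alternative values, 48 stayed within the spread between replicates or within 1.5 times of a count, 12 moved and 0 reversed. The count of 29 expressed hosts lay between 27 and 30, and that of the protein list was 28 throughout. The share of all TPM on the hosts was 0.180%, and was 0.204% of the TPM of protein-coding and lncRNA genes, 0.223% of reads and 0.579% with the canonical transcript length, the last chosen after seeing the data. The median level of log2(TPM + 1) was 4.75, and 5.05 both for expressed members only and with the canonical length. The median spread of 0.16 lay between 0.089 and 0.19 when 1 replicate was left out, lowest without replicate 3. The median log2 ratio of replicate 3 was -0.24, and -0.020 after scaling by the median ratio, which removes the shift common to all genes by construction. The number of members that differed between replicates was 17 of 30 (54.3% of all genes), and from 8 of 29 without replicate 3 (21.3% of all genes) to 18 of 28 without replicate 1 (46.7% of all genes). Of 18 held snoRNAs with a read, 10 had at least 3 reads. The number of members with a pyrimidine tract was 13 of 29 (21.1% of all promoters), and 7 at the start itself (4.07% of all promoters). It was 21 within 20 bases (51.0% of all promoters) and 4 with at least 7 pyrimidines (7.61% of all promoters). Beyond the fewer samples, stricter limits and wider windows of these settings, causes were not tested. Depth limits the values of SNHG21, SNHG18, SNHG22, SNHG27 and SNHG28, which rest on 20 reads or fewer in all.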
